A study of Mus musculus with 30 samples.

Results

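The transcripts described are those of the core pre-mRNA splicing machinery and of the heterogeneous nuclear ribonucleoproteins (hnRNPs). The rule that picks them reads gene symbols and no measured value, but it was set with earlier results of these data known. They are every listed transcript of a gene whose symbol begins with Hnrnp or U2af, or is Srsf, Sf3a, Sf3b or Prpf with a number. The rule found 111 transcripts of 53 genes among 20423 listed transcripts of 14456 symbols. They were 45 hnRNP transcripts, 28 of SR proteins, 4 of U2AF, 11 of SF3 subunits and 23 of PRPF proteins.

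RNA was sequenced from mouse sciatic nerve axoplasm, the soluble content pressed out of the nerve after grinding and a low-speed spin. Nerves were taken 7 days after a crush at mid-thigh (injured) or without injury (naive), and 10 nerves were pooled per sample. RNA was taken from the extracts directly (input), after immunoprecipitation (IP) of nucleolin or PTBP1, or after an IP whose antibody had first been blocked with its peptide (blocked IP), giving 10 groups of 3 libraries. Totals over the listed transcripts ran from 7536033 counts in injured input 1 to 22919174 in naive PTBP1 blocked 1. No genotype, strain or age was given, and markers of Schwann cells, macrophages and other nerve cells were detected in the extracts beside those of axons. In such bulk samples, fewer cells of a type and less RNA per cell cannot be told apart.

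Pre-mRNA splicing is carried out by the spliceosome. U2AF reads the pyrimidine-rich tract and the AG at the 3′ end of an intron, and the SF3a and SF3b complexes then help the U2 snRNP to hold the branch site. PRPF proteins build and remodel the spliceosome, SR proteins bind exons and mostly promote their inclusion, and hnRNPs coat pre-mRNA and often oppose it. Several hnRNPs and SR proteins shuttle to the cytoplasm, where they take part in mRNA transport, stability and translation. Genes of SR proteins and hnRNPs commonly control their own output by making transcripts that keep an intron or carry an early stop codon. PTBP1, once called hnRNP I, binds runs of C and U.

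By the GENCODE annotation on GRCm38, 56 of the 111 transcripts were protein coding (50.45%), 36 were retained-intron forms, 12 were processed transcripts and 7 were nonsense-mediated decay forms. Retained-intron forms made up 32.4% of these transcripts and 16.3% of all listed transcripts. They accounted for 18 of 45 hnRNP transcripts and 10 of 28 SR protein transcripts, but for 1 of 11 SF3 transcripts. Srsf11 had the most listed transcripts (8), followed by Hnrnpk and Hnrnpl (5 each). Transcripts of 1 gene share exons, and no source used here states how the counting divided reads among them. Of the 111, 84 were listed for input, 80 for PTBP1 and 67 in both tables of nucleolin.

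The sequences that set the annotated intron-retaining forms apart are shown for those that rose in injured input and for their partners. Each is a splice site that coding transcripts of the gene use and that the named transcript reads through, 5′ to 3′ on the strand of the gene, with intron bases in capitals and exon bases in lower case.
Hnrnpl-208, 5′ splice site, chr7:28814283-28814297, plus strand: gtggaATATCCTTTT
Hnrnpl-207, 3′ splice site, chr7:28815074-28815103, plus strand: GTTCTGCTTCCTTAAGTCTTCTCACgtttg
Hnrnpll-204, 5′ splice site, chr17:80038582-80038596, minus strand: aaaagGTACGTTTTA
Hnrnpu-202, 3′ splice site, chr1:178336154-178336183, minus strand: AAGGCGGTGTTCTGTGTCGTTATAGgagac
Hnrnpu-202, 5′ splice site, chr1:178335872-178335886, minus strand: tacttGTAAGTGAGG
Srsf11-214, 3′ splice site, chr3:158012871-158012900, minus strand: CTAGTTTGCACGTTTGTGATTCTAGagaga
The Hnrnpl-208 and Hnrnpl-207 sites bound 1 intron, chr7:28814288-28815098, of 811 bases, which 5 coding transcripts of the gene remove. It begins with AT and ends with AC, the ends typical of the rare introns handled by the minor spliceosome. The others have the common GT and AG ends.

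Input axoplasm was compared first, which asks how the RNA of the extract differed between injured and naive nerve. The summed level of the listed members was higher in injured input. It was 6320, 6676 and 5782 CPM (counts per 1000000, scaled by the TMM method) in injured input, against 4462, 4686 and 4881 CPM in naive input. The groups did not overlap on this scale. As a share of unscaled counts, the members made up 0.34%, 0.68% and 0.73% in injured input, against 0.50%, 0.57% and 0.52% in naive input, where injured input 1 was the lowest of the 6 and the groups overlapped. Of 79 members tested, 14 were higher in injured input at an adjusted p under 0.05 and 2 were lower (edgeR quasi-likelihood test, Benjamini-Hochberg adjustment over 14095 transcripts). Over all transcripts tested, 14.5% were called higher and 13.4% lower, so the share called higher (17.7%) was near the background and the share called lower (2.53%) was under it. The median log2 fold change was 0.45 over the 79 members and 0.00 over all transcripts. It was above 0 for 70.9% of the members and 50.1% of all transcripts. The groups did not overlap for 27 members higher (34.2%, with 22.5% of all transcripts) and 6 lower (7.59%, with 21.9%).

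Calls of higher level were more frequent among abundant members. Of 24 members averaging 50 CPM or more over the inputs, 9 were called higher (37.5%) and 1 lower (4.17%), while 23.3% and 25.4% of the 2914 transcripts at that level were. Of the 55 members under 50 CPM, 5 were called higher and 1 lower, and 12.2% and 10.2% of all transcripts at that level were. Every transcript listed in the input table had at least 5 counts in injured input 2 and 3, while counts went down to 0 in the naive inputs, so a transcript lost after injury could not be listed. This limit holds for every input count given here. By class, 10 of 47 coding members were called higher (21.3%, with 15.9% of all coding transcripts) and 2 lower (4.26%, with 16.8%), and 4 of 21 retained-intron members were called higher (19.0%, with 10.2% of such transcripts).

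**Figure D1:**
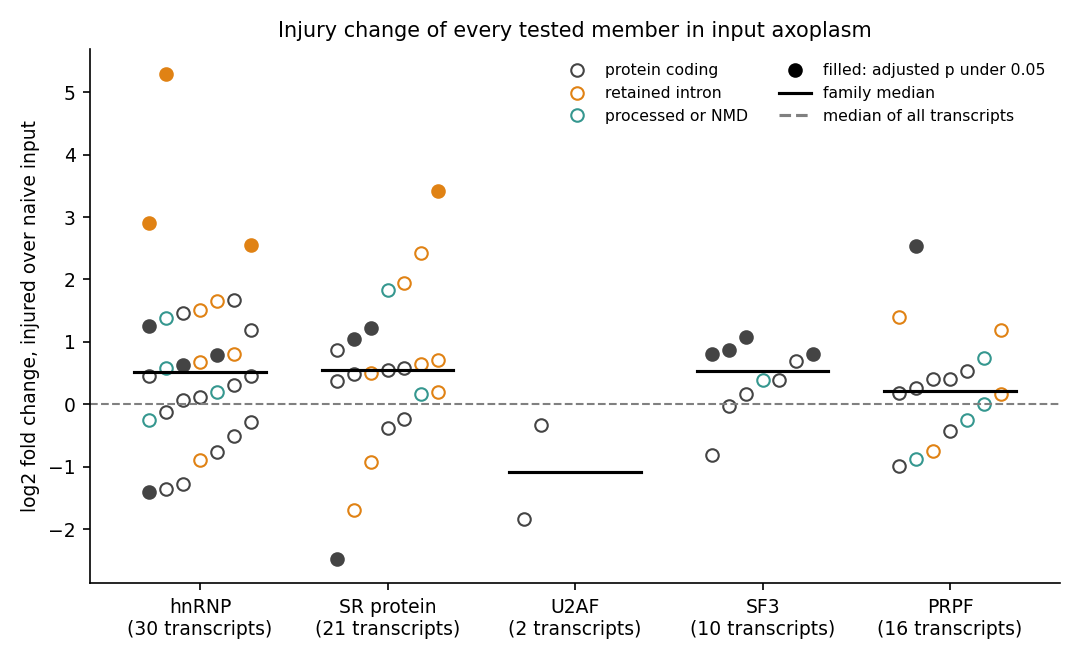
Injury change of the 79 tested members in input axoplasm. Each point is 1 transcript, the vertical axis is the log2 fold change of injured over naive input, filled points had an adjusted p under 0.05, colours give the annotated class, and bars are family medians. SF3 medians lay at 0.54, hnRNP at 0.52, SR proteins at 0.55, PRPF at 0.22, and both U2AF transcripts were below 0.

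SF3 subunits gave 4 calls higher and none lower among 10 transcripts tested. Their median level was 87.1 CPM, and 23.3% of all transcripts at 50 CPM or more were called higher. Sf3b1-201 encodes the largest SF3b subunit, which contacts the branch site region (chr1:54985169-55027481, minus strand). It stood at 592, 568 and 610 CPM in injured input, against 377, 338 and 296 CPM in naive input. All injured libraries were above all naive ones, and the log2 fold change was 0.81 ± 0.21 (SE; edgeR adjusted p = 0.0115). Sf3b6-201, the small subunit that touches the branch point adenosine, had 196, 282 and 189 CPM in injured input, against 78.5, 99.7 and 138 CPM in naive input. The groups did not overlap, although naive input 3 came closest to the injured range (log2 1.08 ± 0.27, edgeR adjusted p = 0.00963). Sf3a3-201, a subunit of SF3a, had 72.2, 133 and 76.1 CPM in injured input, against 39.5, 51.8 and 63.1 CPM in naive input. Injured input 2 was the highest of the 6 and the change only just passed (log2 0.87, edgeR adjusted p = 0.0453). Sf3b5-201, a small SF3b subunit, had 124, 135 and 89.3 CPM in injured input, against 61.2, 66.0 and 71.3 CPM in naive input (log2 0.81, edgeR adjusted p = 0.0237). Sf3b2-201, the SF3b subunit that binds the pre-mRNA next to the branch site, did not pass, with 206, 182 and 137 CPM in injured input, against 162, 184 and 189 CPM in naive input.

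Among hnRNPs, 6 transcripts were called higher and 1 lower of 30 tested, beside 14.5% and 13.4% of all transcripts. Hnrnpa2b1-203, a coding transcript of the gene whose protein binds a transport element in myelin basic protein mRNA, was the most abundant member per length, at a mean of 665 CPM per kilobase in injured input and 427 in naive input. It had 1184, 1268 and 994 CPM in injured input, against 667, 766 and 783 CPM in naive input. Every injured library was above every naive one (log2 0.64 ± 0.21, edgeR adjusted p = 0.0407). Hnrnpk-202, whose protein binds C-rich stretches, had 241, 226 and 135 CPM in injured input, against 67.2, 74.7 and 111 CPM in naive input. The groups were separate but injured input 3 and naive input 3 lay close (log2 1.25 ± 0.28, edgeR adjusted p = 0.0058). Hnrnpab-201, an A/B-type hnRNP, had 123, 154 and 138 CPM in injured input, against 66.2, 79.0 and 95.3 CPM in naive input (log2 0.79, edgeR adjusted p = 0.0235). Hnrnpk overlaps Rmi1 and Hnrnpab overlaps Phykpl on the opposite strand, as do Sf3b3 and Cog4, Srsf2 and Mettl23, Srsf1 and Gm11508, and Prpf4b and Gm36839. No source used here states whether reads were counted by strand.

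The hnRNP transcript called lower was Hnrnpa3-203, a coding form of another A/B-type hnRNP (chr2:75659267-75669407, plus strand). It had 25.5, 24.9 and 56.3 CPM in injured input, against 90.8, 104 and 87.7 CPM in naive input. The highest injured library was still below the lowest naive one (log2 -1.40 ± 0.32, edgeR adjusted p = 0.00688). It overlaps the small RNA gene Gm24574 on the same strand. Hnrnpa0-201, a further A/B-type hnRNP, had 319, 320 and 380 CPM in injured input, against 376, 395 and 472 CPM in naive input, and the groups overlapped (log2 -0.29). Hnrnpu-201, the coding form of the scaffold attachment factor hnRNP U, had 608, 646 and 622 CPM in injured input, against 456, 478 and 429 CPM in naive input. Its groups did not overlap, but the change did not pass (log2 0.46, edgeR adjusted p = 0.105).

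The 3 largest changes among hnRNPs were those of retained-intron forms, Hnrnpl-207 and Hnrnpu-202 at low counts and Hnrnpll-204 at a higher level. Hnrnpl-207 starts inside the AT-AC intron shown above, and hnRNP L binds CA repeats. It had 2.72, 2.10 and 0.767 CPM in injured input, against 0.0642, 0.0522 and 0 CPM in naive input. That is 50 counts in the injured inputs and 2 in the naive inputs, or 40.6 times as much after scaling (95% counting interval 10.7 to 345, edgeR adjusted p = 0.00236). Hnrnpl-208, which ends inside the same intron, had 3.46, 0.969 and 1.18 CPM in injured input, against 0.963, 0.418 and 0.461 CPM in naive input, without passing (edgeR adjusted p = 0.169). The coding form listed, Hnrnpl-209, was itself low, with 0.247, 0.484 and 0.295 CPM in injured input, against 0.899, 0.313 and 0.461 CPM in naive input.

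Hnrnpll-204 reads through a 5′ splice site of the gene for an hnRNP L relative known from lymphocyte splicing. It had 12.4, 19.9 and 17.5 CPM in injured input, against 2.18, 3.76 and 2.51 CPM in naive input. The lowest injured library exceeded the highest naive one several fold (log2 2.56 ± 0.45, edgeR adjusted p = 0.00131). The summed counts of Hnrnpll had a log2 fold change of 1.81 (edgeR adjusted p = 0.00341). That sum includes Hnrnpll-204 and is no separate support for it. Every listed Hnrnpll transcript is a retained-intron form, so the sum holds no coding form. Hnrnpu-202, a short transcript with both of its sites shown above, had 1.48, 1.13 and 0.590 CPM in injured input, against 0.128, 0.157 and 0.102 CPM in naive input (log2 2.90, edgeR adjusted p = 0.0192). Summed over transcripts, Hnrnpu did not pass (log2 0.48, edgeR adjusted p = 0.0781), nor did Hnrnpl (log2 1.71, edgeR adjusted p = 0.0682).

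**Figure D2:**
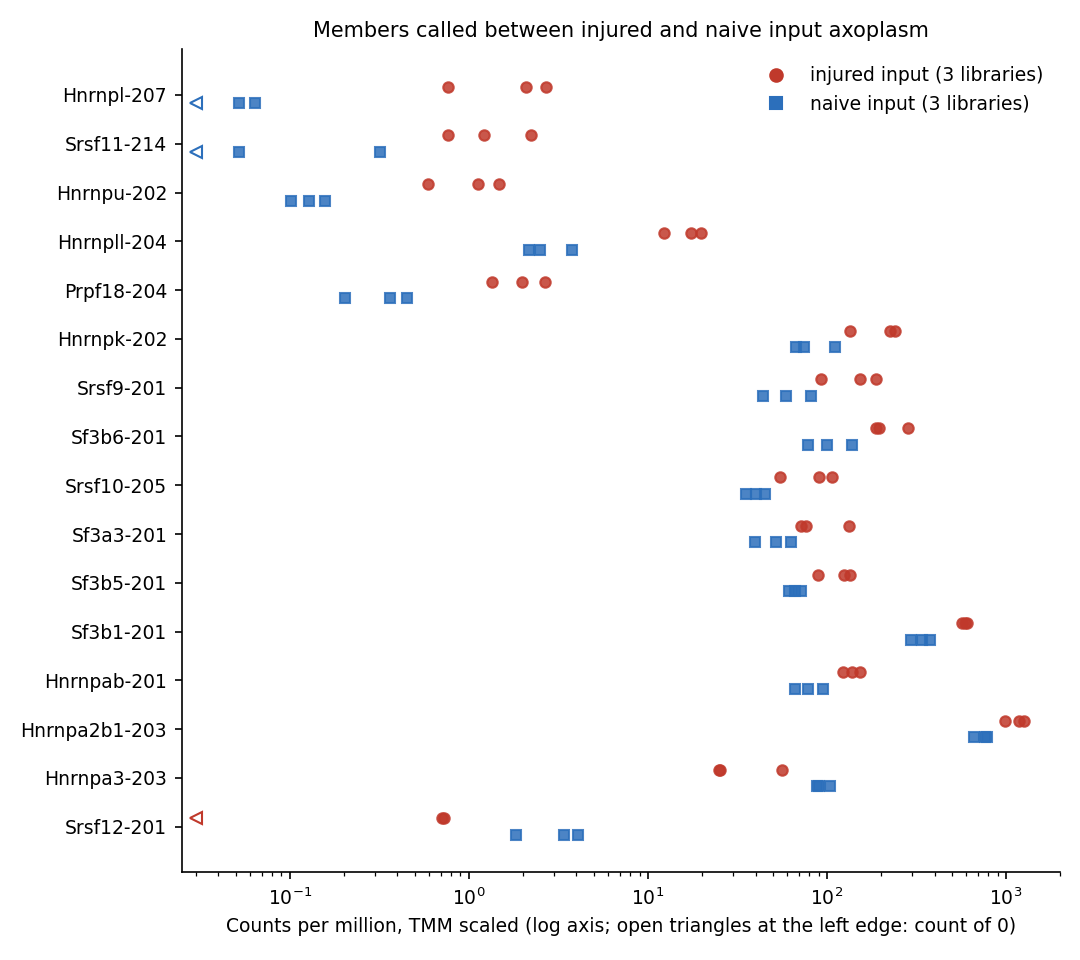
Members called between injured and naive input, by library. The horizontal log axis gives CPM, circles are the 3 injured inputs and squares the 3 naive inputs, and open triangles at the left edge mark a count of 0. For each of the 16 transcripts the groups are separate, from Hnrnpl-207 with 0.767 to 2.72 CPM in injured input down to Srsf12-201, whose injured libraries stood at 0, 0.726 and 0.708 CPM.

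SR proteins gave 3 calls higher and 1 lower among 21 transcripts tested, beside 14.5% and 13.4% of all transcripts. Srsf9-201 encodes a short SR protein and had 154, 188 and 93.4 CPM in injured input, against 44.2, 58.9 and 82.0 CPM in naive input. The groups did not overlap, with injured input 3 and naive input 3 close together (log2 1.23 ± 0.31, edgeR adjusted p = 0.0103). Srsf10-205 encodes an SR protein that turns into a repressor when dephosphorylated and had 107, 90.0 and 54.5 CPM in injured input, against 40.1, 45.1 and 35.6 CPM in naive input (log2 1.05, edgeR adjusted p = 0.0151). Srsf11-214 is a retained-intron form of 474 bases with 2.23, 1.21 and 0.767 CPM in injured input, against 0.321, 0.0522 and 0 CPM in naive input (log2 3.41, edgeR adjusted p = 0.0279). These rest on 37 counts in the injured inputs and 6 in the naive inputs. Summed over its transcripts, Srsf11 did not pass (log2 0.56, edgeR adjusted p = 0.178), and the coding form Srsf11-204 had 12.6, 13.2 and 11.98 CPM in injured input, against 6.23, 6.42 and 7.98 CPM in naive input (edgeR adjusted p = 0.125).

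The SR transcript called lower was Srsf12-201, from a gene whose protein is related to Srsf10. It had 0, 0.726 and 0.708 CPM in injured input, against 3.40, 4.07 and 1.84 CPM in naive input (log2 -2.47 ± 0.80, edgeR adjusted p = 0.0356). The 3 most abundant SR protein transcripts did not pass. Srsf6-203 had 384, 409 and 352 CPM in injured input, against 222, 253 and 290 CPM in naive input, with no overlap (log2 0.58, edgeR adjusted p = 0.056). It passed when counts were summed per gene and fewer features were tested (log2 0.61, edgeR adjusted p = 0.0306). Srsf7-201 had 230, 315 and 270 CPM in injured input, against 206, 194 and 184 CPM in naive input, again without overlap (log2 0.48, edgeR adjusted p = 0.114). Srsf3-202, whose protein promotes inclusion of many exons and mRNA export, leaned the other way with 127, 146 and 160 CPM in injured input, against 154, 172 and 182 CPM in naive input, and its groups overlapped.

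Both U2AF transcripts tested failed to pass. U2af1-201, the subunit that reads the AG, had 0, 2.02 and 2.83 CPM in injured input, against 9.25, 8.20 and 1.43 CPM in naive input (log2 -1.83, edgeR adjusted p = 0.145). Naive input 3 lay inside the injured range. U2af2-201, the subunit that reads the pyrimidine tract, had 10.4, 7.59 and 5.37 CPM in injured input, against 10.0, 8.78 and 10.3 CPM in naive input. Of 16 PRPF transcripts tested, 1 was called higher, beside 14.5% of all transcripts. This was Prpf18-204, a coding form of a factor needed in the second step of splicing. It had 1.98, 2.66 and 1.36 CPM in injured input, against 0.450, 0.366 and 0.205 CPM in naive input (log2 2.53, edgeR adjusted p = 0.0202), while the summed counts of Prpf18 pointed the other way without passing (log2 -0.31, edgeR adjusted p = 0.431). The more abundant PRPF members described here stayed short of the threshold. Prpf4b-201, a kinase of the splicing machinery, had 177, 155 and 145 CPM in injured input, against 140, 116 and 103 CPM in naive input. Prpf4-201 of the U4/U6 snRNP had 48.7, 58.6 and 54.7 CPM in injured input, against 34.8, 42.7 and 34.2 CPM in naive input, without overlap (log2 0.54).

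The calls depended on single libraries and on scaling. Leaving out 1 input library at a time gave 4 to 15 calls higher and 1 or 2 lower, with the fewest (4 and 1) without injured input 2 and next fewest (5 and 1) without naive input 2. The shares over all transcripts without each library are not given here, so these counts do not set the members apart from other transcripts. Hnrnpl-207, Hnrnpll-204, Hnrnpk-202 and Hnrnpa3-203 kept their call in all 6 of these fits. With library totals alone in place of TMM scaling, the median of all transcripts moved to -0.26 and that of the members to 0.15. There 3 members were called higher and 2 lower, beside 846 higher and 1481 lower of 14095 transcripts. Every coding member called higher with TMM scaling lost its call there, including Hnrnpk-202, Hnrnpa2b1-203, Sf3b1-201 and the other SF3 subunits. The 3 still called higher were retained-intron forms, Hnrnpl-207 and Hnrnpll-204 among them.

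Markers of other cells moved strongly in the same libraries, and their part in these changes was not tested. Of 20 cell cycle marker transcripts 19 were called higher, with summed levels of 1249 to 1494 CPM in injured input, against 143 to 159 CPM in naive input. Of 21 macrophage marker transcripts 16 were called higher, summing to 8383 to 11135 CPM in injured input, against 1152 to 1959 CPM in naive input. Myelin markers had 1 transcript called higher and 15 lower of 17, with 4829 to 7699 CPM in injured input, against 30663 to 53986 CPM in naive input. Neuron and axon markers had 1 transcript called higher, of Tubb3 (log2 2.03), and 3 lower of 9. They summed to 324 to 429 CPM in injured input, against 1072 to 1457 CPM in naive input. All of these lists were detected in both groups.

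Other splicing genes, from lists written for this purpose, behaved in mixed ways in input. Their counts stand beside 14.5% called higher and 13.4% called lower over all transcripts tested. Of 31 transcripts of snRNP core and U5 proteins, 4 were called higher, among them Snrnp70 (log2 1.94) and Snrpd3 (log2 0.71), and 4 were called lower, among them Lsm3 (log2 -1.03) and Snrpg (log2 -0.91). Of 45 transcripts of SR protein kinases and SR-like regulators, 14 were called higher and none lower, including the kinases Srpk1 (log2 1.61) and Srpk2 (log2 0.71), and 10 of the 14 were not coding forms. Of 43 transcripts of hnRNP-like and FET proteins, 6 were called higher, with the helicases Ddx17 (log2 1.33) and Ddx5 (log2 0.78), and 1 lower, the cold-inducible Cirbp (log2 -1.77). Of 48 transcripts of other spliceosome proteins, 5 were higher and 1 lower. Of 37 transcripts of tissue and alternative splicing regulators, 2 were higher and 2 lower, with Qk (log2 -1.82) and Rbmx (log2 -1.06) as the lower pair.

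The injury contrast was repeated within each kind of IP and blocked IP, which hold libraries of their own. Of 66 members tested in nucleolin IPs none was called (edgeR; 0.828% of 11840 transcripts were called), with 5 at an unadjusted p under 0.05 (7.58%, beside 12.4% of all transcripts) and 1 called by DESeq2 (1.52%, beside 6.20%). Of the same 66 in the blocked nucleolin IPs, 1 was called higher (1.52%), beside 0.735% of all transcripts, with 7 at an unadjusted p under 0.05 (10.6%, beside 20.1%) and 3 called by DESeq2 (4.55%, beside 13.6%). Of 78 members in PTBP1 IPs none was called by edgeR (1 of 14540 transcripts, 0.00688%, was), with 4 at an unadjusted p under 0.05 (5.13%, beside 10.3%) and none by DESeq2, which called 4.68% of all transcripts. In blocked PTBP1 IPs none was called by edgeR (4 of all transcripts, 0.0275%), with 14 at an unadjusted p under 0.05 (17.9%, beside 21.7%) and 12 called by DESeq2 (15.4%, beside 17.2%). In these 4 contrasts the members' shares by unadjusted p and by DESeq2 lay under those of all transcripts.

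Although nearly none passed, more members than background leaned upward throughout. Over 54 members tested in every fit, 16 had a log2 fold change above 0 in all 5 injury contrasts (29.6%), and 6 had one above 0 in none (11.1%). Over the 10125 transcripts tested in every fit these shares were 19.1% and 23.5%. The 16 include Sf3a1-201, Sf3a3-201, Sf3b1-201, Sf3b6-201, Hnrnpa2b1-203, Hnrnpab-201, Hnrnpk-202, Hnrnpu-201 and Srsf9-201, and the 6 include Hnrnpa3-203 and Srsf2-201. The libraries differ between contrasts, but extracts of the same nerves may have been divided among them, so the contrasts are not independent experiments.

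Sf3b1-201 shows the pattern and its spread. In nucleolin IPs it had 1573, 1529 and 1067 CPM in injured nerve, against 922, 474 and 341 CPM in naive nerve, and in blocked nucleolin IPs 1617, 1659 and 1104 CPM in injured nerve, against 1645, 552 and 429 CPM in naive nerve. The IP groups were separate and the blocked groups overlapped through naive blocked 1. In blocked PTBP1 IPs it had 2069, 841 and 1158 CPM in injured nerve, against 625, 269 and 258 CPM in naive nerve. The log2 fold changes were 0.81 in input, 1.26 in nucleolin IPs, 0.74 in blocked nucleolin IPs, 0.67 in PTBP1 IPs and 1.82 in blocked PTBP1 IPs, and only that in input passed. For Hnrnpk-202 they were 1.25, 0.91, 0.87, 1.56 and 1.18 in the same order, and for Hnrnpa3-203 they were -1.40, -0.71, -0.90, -1.12 and -0.64.

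**Figure D3:**
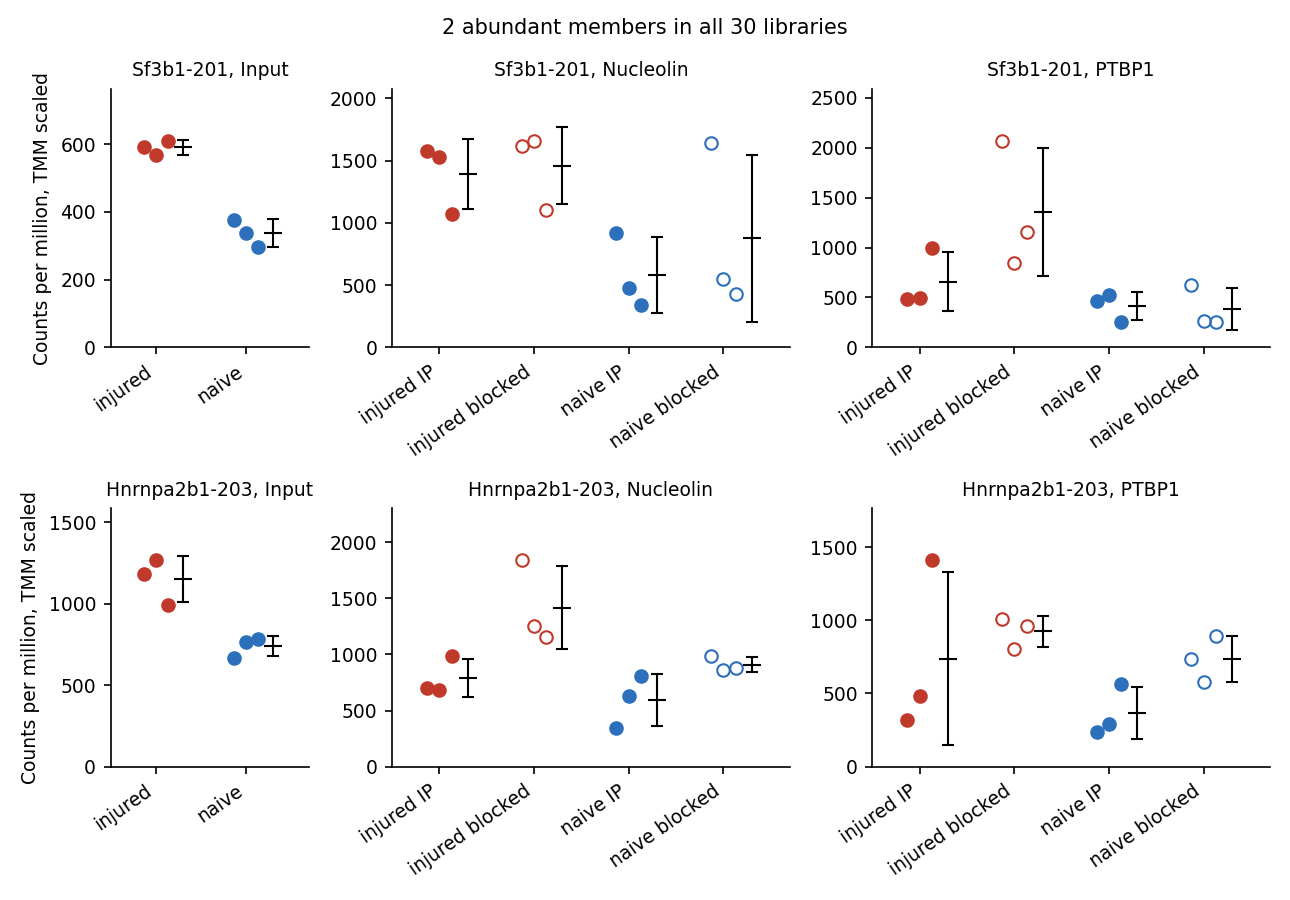
Levels of Sf3b1-201 and Hnrnpa2b1-203 in all 30 libraries. The vertical axes give CPM within each fit, points are libraries (red injured, blue naive, open for blocked IPs), and the bar beside each group is its mean with the SD over 3 libraries. Sf3b1-201 stood at 568 to 610 CPM in injured input, against 296 to 377 CPM in naive input, and libraries of 1 IP group differed by up to several fold.

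The member called in the blocked nucleolin IPs was Prpf38b-204, a nonsense-mediated decay form from a gene of the PRPF38 family (chr3:108902805-108911696, minus strand). It had 0.356, 2.04 and 1.504 CPM in injured blocked IPs, against 0, 0 and 0 CPM in naive blocked IPs. With 66 counts and none, it was at least 21.7-fold higher in the injured group, taking 3 counts over the group as the floor (edgeR adjusted p = 0.0313). The call was lost without injured blocked 2 or naive blocked 1 or 2, and summed over its transcripts Prpf38b had a log2 fold change of -0.28. Sf3b3-201 and Srsf12-201 were among the 5 members of smallest p in the nucleolin IPs. Sf3b3-201, a scaffold subunit of SF3b, had 241, 203 and 150 CPM in injured IPs, against 70.3, 99.4 and 99.3 CPM in naive IPs, with no overlap (log2 1.14, edgeR adjusted p = 0.167). Srsf12-201 had 0.919, 0.817 and 0.879 CPM in injured IPs, against 24.1, 7.98 and 9.90 CPM in naive IPs, lower as in input (log2 -3.99, edgeR adjusted p = 0.368).

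In the PTBP1 IPs, Hnrnpl-205, a short retained-intron form, was at 0, 0 and 0 CPM in injured nerve, against 23.0, 0.629 and 0.596 CPM in naive nerve. It was at least 97.8-fold lower in injured IPs by the same floor, mostly through naive IP 1 (edgeR adjusted p = 0.26). In blocked PTBP1 IPs, Prpf3-206, a retained-intron form from a U4/U6 protein gene, had 18.9, 9.29 and 1.13 CPM in injured nerve, against 0, 0 and 0 CPM in naive nerve (edgeR adjusted p = 0.116). Hnrnpl-209 ran the other way there, with 0, 0 and 0 CPM in injured nerve, against 0.941, 2.28 and 0.440 CPM in naive nerve (edgeR adjusted p = 0.108). The authors' deposited table for that contrast lists 3 members higher and 3 lower at an FDR under 0.05 (3.75% each, beside 4.2% and 5.09% of all its transcripts), with Sf3b1-201 at a log2 fold change of 1.83 and an FDR of 0.0276.

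Binding was read as the level in an IP over that in its blocked IP. No member passed in either antibody, in injured or naive nerve, and no other transcript did (0.0% of 11840 for nucleolin and of 14540 for PTBP1, edgeR). That count over all transcripts was not stable for nucleolin in naive nerve, where edgeR called 302 higher and 18 lower without naive blocked 3, 125 higher and 10 lower without naive IP 3, and 39 higher with library totals alone. Of the members, 2 passed without naive blocked 3, and none did in the other cases. Without IP 3, edgeR called 15 transcripts in injured nucleolin IPs and 4 in injured PTBP1 IPs, none of them a member. In simulated counts, the injured PTBP1 test called 0 of 50 transcripts raised by log2 2 and 18 of 50 raised by log2 4. The injured nucleolin test called 4 and 26 of 50, so a missing call does not show missing binding.

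For nucleolin, an unadjusted p under 0.05 was reached by 2 of 66 members in injured nerve (3.03%, beside 6.49% of all transcripts) and by 6 in naive nerve (9.09%, beside 12.01%). DESeq2 called none in injured nerve, where it called 2.65% of all transcripts, and 4 in naive nerve (6.06%, beside 6.43%). For PTBP1, an unadjusted p under 0.05 was reached by 14 of 78 members in injured nerve (17.9%, beside 12.5%) and by 10 in naive nerve (12.8%, beside 13.02%). DESeq2 called 8 members in injured nerve (10.3%, beside 6.20%) and 6 in naive nerve (7.69%, beside 7.56%). The change of binding with injury gave no call by edgeR either. An unadjusted p under 0.05 was reached there by 4 members for nucleolin (6.06%, beside 2.55%) and 5 for PTBP1 (6.41%, beside 7.89%), and DESeq2 called none for nucleolin (0.169% of all transcripts) and 2 for PTBP1 (2.56%, beside 2.89%).

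The abundant members stood, on the median, below their blocked IPs. In the nucleolin fit, members of 50 CPM or more had a median log2 fold change of -0.20 in injured nerve and -0.54 in naive nerve, while all transcripts at that level had -0.16 and -0.25. Hnrnpa2b1-203 had 699, 683 and 987 CPM in injured nucleolin IPs, against 1841, 1249 and 1158 CPM in their blocked IPs. Every IP library was below every blocked one (log2 -0.84, edgeR adjusted p = 0.769). In naive nerve it had 344, 629 and 810 CPM in nucleolin IPs, against 986, 863 and 879 CPM in blocked IPs. Srsf2-201, whose protein binds exonic enhancers and stays largely in the nucleus, had 34.7, 41.9 and 67.4 CPM in injured nucleolin IPs, against 135, 85.6 and 78.6 CPM in blocked IPs (log2 -1.06, edgeR adjusted p = 0.618). Sf3b2-201 had 163, 235 and 191 CPM in naive nucleolin IPs, against 539, 337 and 290 CPM in blocked IPs, again separate and lower in the IP (log2 -0.98, edgeR adjusted p = 0.247).

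A few members stood above their blocked nucleolin IPs. Prpf4-201 had 341, 279 and 93.9 CPM in injured IPs, against 114, 87.7 and 78.6 CPM in blocked IPs, overlapping only through IP 3 (log2 1.35, edgeR adjusted p = 0.872). In naive nerve Prpf4-201 pointed the other way, with a log2 fold change of -1.21 over its blocked nucleolin IPs. Prpf38b-204 had 0.556, 0.855 and 2.07 CPM in naive IPs, against 0, 0 and 0 CPM in blocked IPs, at least 21.5-fold higher (edgeR adjusted p = 0.0627). Srsf10-206, a processed transcript of 522 bases, had 1.85, 1.805 and 1.18 CPM in naive IPs, against 0, 0 and 0.0578 CPM in blocked IPs, or 82.4 times as much after scaling (95% counting interval 14.2 to 3310, edgeR adjusted p = 0.0924). They are the 2 members that the authors' deposited table lists as enriched in naive nucleolin IPs (2.5% of 80, beside 5.16% of all its transcripts), Prpf38b-204 with a log2 fold change of 7.06 and Srsf10-206 with 5.98.

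In the PTBP1 IPs the members split by transcript class. The classes also differed in median level, at 54.0 CPM for coding, 3.68 CPM for retained-intron and 1.44 CPM for processed and decay members. Coding members had a median log2 fold change of -0.43 in injured and -0.21 in naive nerve, while all coding transcripts had -0.11 and -0.07. Retained-intron members had 0.44 in injured and 1.15 in naive nerve (1.08 and 1.16 over all such transcripts), and processed and decay forms had 2.19 and 3.01 (0.74 and 0.97 over all). In the nucleolin IPs, coding, retained-intron and processed or decay members had medians of -0.25, -0.28 and -0.14 in injured nerve. In naive nerve they had -0.14, 0.21 and 2.79. Over all transcripts of these classes the nucleolin medians were -0.13, 0.75 and 0.39 in injured nerve and -0.21, 1.06 and 0.49 in naive nerve. A split by class was therefore not limited to PTBP1. In the PTBP1 IPs the groups did not overlap for 14 of 78 members higher in injured IPs (17.9%, with 16.6% of all transcripts) and 9 of 78 in naive IPs (11.5%, with 9.26%), near the background in each. They were lower without overlap for 5 members in injured IPs (6.41%, with 6.31% of all transcripts) and 6 in naive IPs (7.69%, with 4.68%). Over all listed transcripts, a PTBP1 IP library had 1.64% to 19.3% at 0 and a blocked PTBP1 library 15.8% to 30.4%.

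In injured nerve, 4 of the 5 members with the smallest p are described here, and each had a count of 0 in all 3 blocked IPs. Prpf40b-214, a retained-intron form from a U1-associated protein gene, had 0.843, 3.57 and 0.268 CPM in injured IPs and was at least 19.4-fold higher there. Hnrnpu-202 had 2.11, 3.39 and 1.26 CPM in injured IPs and was at least 32.6-fold higher. Hnrnph2-204, a coding form from a gene of a G-tract binding hnRNP, had 1.94, 5.97 and 1.91 CPM in injured IPs and was at least 47.6-fold higher. These 3 were present in each IP library and in none of the blocked ones. Hnrnph1-213 had 0, 4.01 and 0.917 CPM in injured IPs and was at least 23.4-fold higher. None of the 4 passed (edgeR adjusted p = 0.217 to 0.219). The authors' deposited table lists all 4 as enriched in injured nerve, with an FDR of 0.0141 to 0.0314, among 6 of 80 members so listed (7.5%, beside 7.63% of all its transcripts). In naive nerve Prpf39-201, a coding form from a U1-associated protein gene, had 26.0, 6.22 and 3.22 CPM in IPs, against 0.0990, 0 and 0 CPM in blocked IPs (ratio 300, 95% counting interval 82.6 to 2480, edgeR adjusted p = 0.222). In injured nerve Prpf39-201 pointed the other way (log2 -1.22, edgeR adjusted p = 0.904). Its blocked IPs held 331 counts there, against 2 in the naive blocked IPs. Prpf39-201 overlaps Fkbp3 on the opposite strand.

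Some coding members of moderate level stood above their blocked IPs in injured nerve. Hnrnpul1-201, from an hnRNP U-like gene, had 457, 337 and 153 CPM in injured PTBP1 IPs, against 70.9, 95.3 and 93.4 CPM in blocked IPs (log2 1.87, edgeR adjusted p = 0.235). Sf3b4-201, an SF3b subunit that binds near the branch site, had 166, 120 and 34.6 CPM in injured IPs, against 0.418, 14.9 and 17.8 CPM in blocked IPs (log2 3.28, edgeR adjusted p = 0.244). Neither pair of groups overlapped. In naive nerve the same transcripts had log2 fold changes of 0.07 and 0.74, and the difference between injured and naive nerve, tested as an interaction, had an adjusted p of 0.684 for Hnrnpul1-201 and 0.796 for Sf3b4-201 (edgeR).

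The longest run of C and T in each member is described here because PTBP1 is known to bind runs of C and U; whether such runs set the IP levels was not tested. Of the 111 members, 9 have a run of 30 bases or more (8.11%), as do 5.94% of the 19974 listed transcripts with a GENCODE sequence. The length of 30 was set after values had been seen. The first 30 bases of each run follow, 5′ to 3′, in capitals because every base lies in the run; they were read from the GENCODE vM21 transcripts on GRCm38.
Srsf11-203, run of 67 bases, transcript bases 994 to 1060: CTCTCTCTCTCTCTCTCTCTCTTTCTCTCT
Prpf40b-214, run of 61 bases, transcript bases 512 to 572: CTCTCTCCTTCCTTCCTTCCTTCCTTCCTT
Srsf2-203, run of 61 bases, transcript bases 966 to 1026: CCTCCTTTTTTTTCCCCCTTTTTTCTTTCT
Hnrnpr-207, run of 55 bases, transcript bases 11184 to 11238: CTCCTTTTCCTTCTCCTCTTTCTCCTCCTC
Prpf18-205, run of 43 bases, transcript bases 1793 to 1835: CTCTCTCTCTCTCTCTCTCTCTCTCTCTCT
Hnrnph2-204, run of 31 bases, transcript bases 3626 to 3656: CTTCTTTCTTCTTTTTCCTTTTTTTTTTTT
Srsf1-201 and Srsf1-205, run of 31 bases: CCTCTTTTTTTTTTTTTCCTTCCCCCCCCC
Hnrnpll-206, run of 31 bases, transcript bases 857 to 887: CCCCCCCCCCCTTTTTTTTTTTTTTTTTTT
By contrast, the longest run in the abundant Hnrnpa2b1-203 has 10 bases, in capitals here.
Hnrnpa2b1-203: tgtagaagcaTTCCTTCTTTgataatgtta

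Of these 9, 7 had a log2 fold change above 0 in the PTBP1 IPs of injured nerve, with a median of 3.61 over the 9, and 7 in naive nerve, with a median of 1.33. Of the other 69 members tested, 28 were above 0 in injured nerve (40.6%) and 40 in naive nerve (58.0%), with medians of -0.33 and 0.11. Over all transcripts tested, 1069 had a run that long, and 77.8% of them were above 0 in injured and 76.0% in naive nerve, while 48.4% and 49.2% of the 13182 others were. The same held among coding transcripts alone, at 77.3% and 74.2% with a long run and 44.1% and 45.3% without. For runs of 30 or more A and G, in transcripts without a long C and T run, 47.9% of 826 transcripts were above 0 in injured and 56.4% in naive nerve. In the nucleolin IPs, 57.4% of 773 transcripts with a long C and T run were above 0 in injured and 56.5% in naive nerve. Of the 10827 others there, 46.4% and 45.5% were. With long A and G runs, 54.7% and 58.8% of 708 transcripts were above 0 in the nucleolin IPs. A higher share with a long C and T run was therefore not limited to the PTBP1 IPs. Without a limit on length, Spearman's rho between the longest run and the log2 fold change was 0.18 in injured and 0.04 in naive nerve over the 78 members, and 0.17 and 0.13 over the 14251 transcripts with a sequence. The transcripts share their libraries. These values describe the fitted changes and were not tested, since transcripts are not replicates, and none of the 9 members passed on its own.

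**Figure D4:**
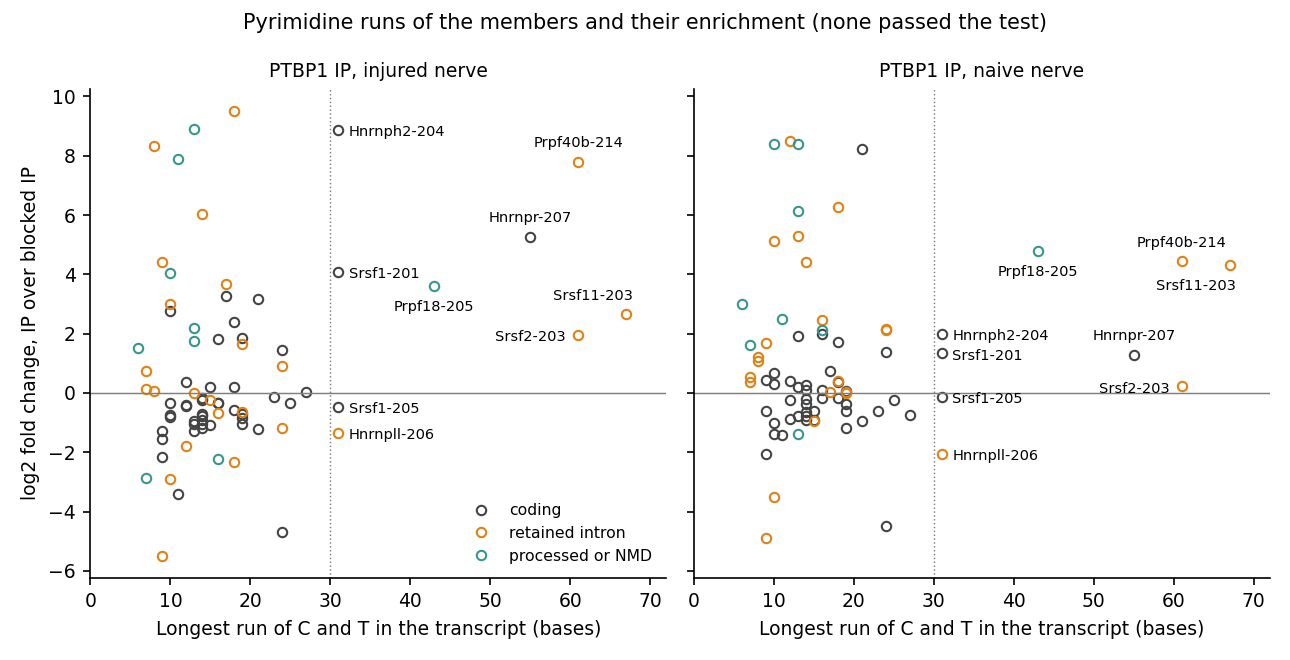
Longest run of C and T in each tested member (horizontal axis, bases) against its log2 fold change in PTBP1 IPs over blocked IPs (vertical axis), in injured nerve (left) and naive nerve (right). Colours give the annotated class, the dotted line marks 30 bases, and the 9 members beyond it are named. In each panel 7 of the 9 lie above 0, and Srsf1-205 and Hnrnpll-206 lie below it.

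Srsf11-203 carries the longest run of any member. It is a retained-intron transcript of 1309 bases in 5 exons (chr3:158023409-158036606, minus strand) and holds 11.5 TCTT motifs per kilobase, where the member median is 5.22. It had 1260, 129 and 17.2 CPM in injured PTBP1 IPs, against 170, 53.7 and 0 CPM in blocked IPs. In naive nerve it had 511, 98.5 and 13.8 CPM in PTBP1 IPs, against 29.1, 0.0556 and 1.96 CPM in blocked IPs. The IP libraries ran higher than the blocked ones of the same number in both conditions, but libraries of 1 group differed so much that the groups overlapped (log2 2.65 ± 2.08 in injured and 4.32 ± 2.25 in naive nerve, edgeR adjusted p = 0.743 and 0.451). In naive nerve the numbers did not pair these libraries by the rule given under processing. In input it had 16.1, 0.888 and 1.42 CPM in injured nerve, against 6.68, 1.46 and 2.46 CPM in naive nerve. The transcript alone made up 22.7% of the summed member level in injured PTBP1 IP 1 and 10.8% in naive PTBP1 IP 1.

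Prpf18-205, a processed transcript with a CT repeat, had a log2 fold change above 0 in the IPs of both proteins, without passing in any. It had 28.9, 24.0 and 7.91 CPM in injured PTBP1 IPs, against 0.0697, 4.82 and 0.0805 CPM in blocked IPs, and 9.78, 29.8 and 11.4 CPM in naive PTBP1 IPs, against 0.148, 0.445 and 1.24 CPM in blocked IPs. Neither pair overlapped (log2 3.61 and 4.78, edgeR adjusted p = 0.461 and 0.299). In injured nucleolin IPs it had 5.10, 3.18 and 2.84 CPM, against 0, 0 and 0.722 CPM in blocked IPs, and in naive nucleolin IPs 25.4, 13.4 and 0.591 CPM, against 0, 0 and 0.809 CPM in blocked IPs. The naive nucleolin groups overlapped, with IP 3 below blocked 3 (log2 3.91 in injured and 5.56 in naive nerve). Input held little of it, 0.494, 1.37 and 0.590 CPM in injured nerve, against 0.770, 0.575 and 1.18 CPM in naive nerve.

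Hnrnpr-207, the coding form with a run of 55 bases from a gene of an RNA-transport associated hnRNP, had 3.12, 3.12 and 3.25 CPM in injured PTBP1 IPs, against 0, 0 and 0.201 CPM in blocked IPs. In naive nerve it had 42.8, 41.6 and 6.52 CPM in PTBP1 IPs, against 0.0990, 11.7 and 25.7 CPM in blocked IPs, where the groups overlapped. Srsf1-205, the main coding form of the prototype SR protein, has a run of 31 bases in its transcript but had 105, 104 and 188 CPM in injured PTBP1 IPs, against 192, 209 and 146 CPM in blocked IPs. A long run was therefore not always accompanied by a higher IP level. Shorter motifs were searched on the transcript strand only. CTCTCT is present in 36.0% of them and in 56.7% of all listed transcripts, and the median of TCTT per kilobase is 5.22 in members and 5.05 in all. TCCCGA, the recognition motif of nucleolin in pre-rRNA, is present in 34.2% of members and 24.5% of all listed transcripts.

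Retained-intron transcripts took a variable share of the summed member level. They made up 25.8%, 6.55% and 1.37% of it in injured PTBP1 IPs, against 6.14%, 1.96% and 0.925% in blocked IPs. In naive nerve they made up 14.5%, 3.49% and 2.08% in PTBP1 IPs, against 3.02%, 1.99% and 0.952% in blocked IPs. Most of the share in the IP 1 libraries came from the single transcript Srsf11-203. It alone made up 22.7% of the member level in injured PTBP1 IP 1 and 10.8% in naive PTBP1 IP 1. Each IP library was above the blocked library of its number, while the groups overlapped. In naive nerve the numbers did not meet the pairing rule given under processing (correlations of 0.082, 0.046 and 0.184). In inputs the share was 2.10%, 1.39% and 1.95% in injured nerve, against 2.39%, 1.32% and 1.34% in naive nerve, and in all nucleolin libraries it was 1.13% to 2.49%.

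**Figure D5:**
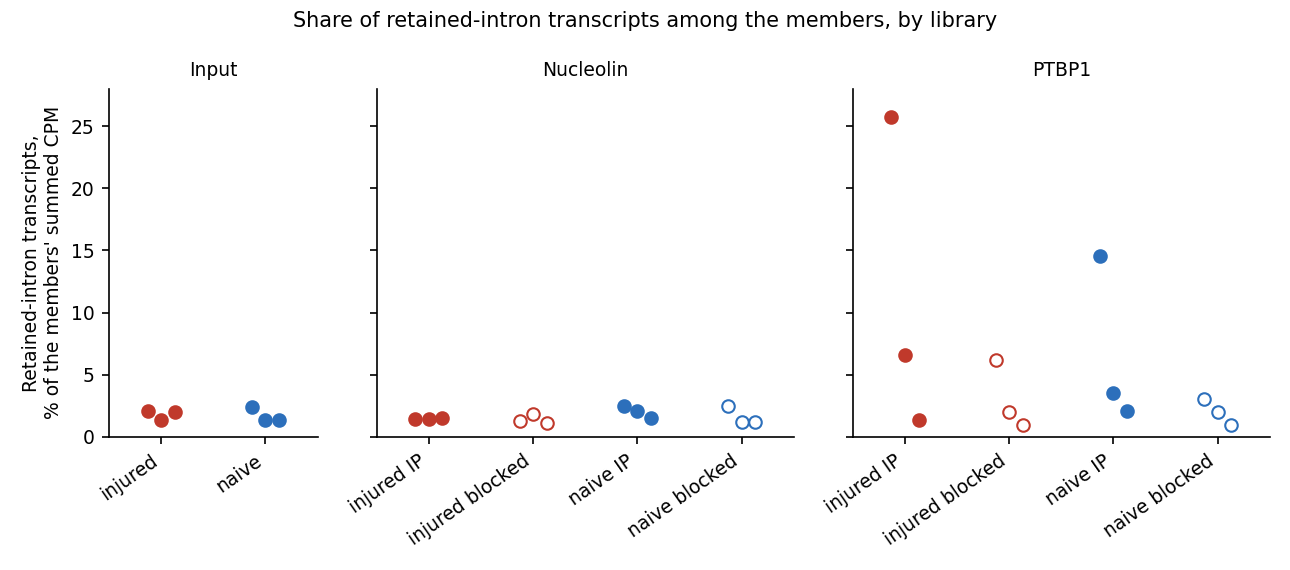
Share of retained-intron transcripts in the summed CPM of the members, by library. Points are libraries, red injured and blue naive, with open points for blocked IPs; the vertical axis is in percent. PTBP1 IP 1 stands highest in injured (25.8%) and naive nerve (14.5%), and input and nucleolin libraries lie between 1.13% and 2.49%. Srsf11-203 alone gives 22.7% and 10.8% in these 2 IP 1 libraries.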

How the data were processed

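The values were whole-number counts per Ensembl transcript, deposited by the authors in 4 tables used here and filtered before deposit. The authors' fold changes on a log2 scale, p-values and FDR came with them, per the file headers, and are quoted as theirs. CASAVA 1.8.2, edgeR, mm10 and GRCm38 are named in the submitters' processing notes; no source used here gives the aligner, the counting tool or the use of strand. The columns taken as blocked library 3 of naive nucleolin and naive PTBP1 are headed PCP in place of ctrl. For PTBP1, a PCP column and a ctrl column of the same condition in another deposited table held equal counts for all 10954 shared transcripts in naive and all 8833 in injured nerve. Another 114 columns of per-sample values were not used.

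CPM was computed from the counts with TMM-scaled totals, within 3 fits: 6 inputs, 12 nucleolin libraries and 12 PTBP1 libraries. Each fit took all its transcripts that passed filterByExpr and was tested with edgeR 4.0.16 (quasi-likelihood, R 4.3.3), two-sided, with Benjamini-Hochberg adjustment and a threshold of 0.05. DESeq2 1.42.0, library totals alone, no filter, 6-library fits, sums per gene, a replicate block and leaving out each library were the alternatives. The scripts were first tested on simulated counts. Counting intervals (95%) and the floor of 3 counts cover counting error only. The labels describe 3 independent repeats per group. Replicate numbers were taken to pair samples where same-numbered libraries deviated together with a correlation over 0.1 in every pair. That was so for injury in nucleolin IPs (0.311, 0.110 and 0.531) and for PTBP1 binding in injured nerve (0.106, 0.134 and 0.289), and the block changed no member's call in either, though it moved the calls over all transcripts in nucleolin IPs to 334, against 98 without it. For number 2 in nucleolin IPs, the highest correlation with an unlike number was larger (0.1295).

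Members and gene lists were chosen with earlier results of these data known. Named were, per comparison, up to 10 called members in each direction, or the 5 of smallest p where fewer than 5 were called, the 3 most abundant of each family in input, and transcripts of the genes with the most listed forms. Members with long pyrimidine runs, and Sf3b5-201, Hnrnpab-201, Hnrnpul1-201 and Sf3b4-201, were named after their values were seen. Transcripts of 1 gene stay in every fit and count but are not reported here by name. Annotation and sequences came from GENCODE vM21, which held 19974 of 20423 transcripts and all 111 members. Reads of near-identical copies, such as hnRNP pseudogenes, may be divided among them.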

Additional observations from a re-analysis of the deposited data

How the results depend on the processing

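Results were recomputed under other scalings, filters, tools, designs and without each library. Of 1041 recomputed values of 74 named results, 944 kept direction and side of the threshold, 55 lost it, 26 gained it and 16 changed sign. The 16 input calls became 5 with library totals alone and 5 to 17 when leaving out 1 library. Shares over all transcripts are not given here for the inputs without 1 library or with the replicate block. Those input counts therefore describe the members only. Counts of called members under DESeq2 were 4 for naive nucleolin binding, 6 for naive and 8 for injured PTBP1 binding, 2 for its change, and, for injury, 1 in nucleolin IPs, 3 in blocked nucleolin IPs and 12 in blocked PTBP1 IPs, where edgeR gave 0, except for 1 in blocked nucleolin IPs. In these comparisons DESeq2 called 2.89% to 17.2% of all transcripts. A fit of only the 6 libraries compared gave 1 in nucleolin IPs and 0 in blocked nucleolin IPs, and sums per gene gave 0 in the blocked ones. Leaving out 1 library gave 0 to 2 in blocked nucleolin IPs and 0 to 2 for naive nucleolin binding, the 2 without naive nucleolin blocked 3. The replicate block gave 18 input calls and changed no other count; in input and the other comparisons the samples share only a number.

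Sums per gene turned the sign of minor forms. In input, Prpf18-204 became -0.31. For naive nucleolin binding, Prpf38b-204 became -0.54, Srsf10-206 and Srsf10-210 -0.64 and Prpf18-205 -0.03, and for its change Prpf38b-204 became 0.52 and both Srsf10 forms 1.15. In blocked nucleolin IPs Prpf38b-204 became -0.28 and both Srsf10 forms -0.26. For PTBP1 in injured nerve Hnrnpu-202 became -0.37, and for its change Hnrnpu-202 became -0.12 and Hnrnpl-209 -2.47. Sums add the reads of the gene's other forms, so they are another quantity. In input, Sf3b2-201 ran from -0.24 to 0.11 when 1 library was left out. The cause of the other changes was not tested.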

Other observations

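The retained-intron forms of Hnrnpl come from several places of the gene. Hnrnpl-207, which reads into its AT-AC intron, was listed for input and injured nucleolin, and Hnrnpl-208 for input alone, while Hnrnpl-205 was listed for naive nucleolin and for PTBP1. The members whose log2 fold change was above 0 in all 4 IPs over blocked IPs were U2af2-201, Hnrnpul1-201, Hnrnpu-202, Hnrnpdl-207, Prpf18-205 and Hnrnpd-211, which is 6 of the 54 tested in every fit, and 15 were above 0 in none. The matching shares over all transcripts were not computed, and no member passed in these 4 contrasts in the edgeR fits of all libraries. Across the 78 members tested for PTBP1, Spearman's rho between TCTT per kilobase and the log2 fold change was 0.19 in injured nerve and 0.07 in naive nerve, and over 14251 transcripts it was 0.19 and 0.11. The points share their libraries, and these values are descriptions.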
